A study of Mus musculus with 8 samples.

Results

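Glutamine and glutamate pass between astrocytes and neurons in a cycle, and the genes described here encode 5 of its enzymes and 4 of its glutamine carriers. The 9 genes, Glul, Gls2, Glud1, Slc38a3, Slc38a5, Slc38a1, Slc38a2, Got1 and Got2, were taken by symbol from the 24060 rows of each deposited table, and all 9 were found. The samples were 8 cortex libraries from 4 mice of about postnatal day 80, hemizygous for Aldh1l1-creERT2 and heterozygous for Ribotag. Ribotag is an allele of the ribosomal protein gene Rpl22 that, after Cre recombination, puts a hemagglutinin (HA) tag on ribosomes, and the Cre is inducible and driven by Aldh1l1. Every animal carried both alleles and gave 1 library of each kind: an input library from cleared cortex lysate, holding RNA of all cell types, and an HA IP library of RNA precipitated with the tagged ribosomes. Animals of both sexes were used, the sex of each is not given in the labels, and no group without Cre or tag was analysed here, so RNA that binds without a tag was not measured in these libraries. How Cre was induced is not given in the sources used here. The 4 animals, numbered 579, 580, 581 and 595, are the replicates.

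In the textbook cycle, astrocytes take up glutamate released at synapses and glutamine synthetase joins it with ammonia to form glutamine. Glutamine leaves astrocytes through system N carriers, enters neurons through system A carriers and is split back to glutamate by glutaminase. Glutamate dehydrogenase and the aspartate aminotransferases connect glutamate with the tricarboxylic acid cycle, and the aminotransferases also serve the malate-aspartate shuttle, which carries reducing equivalents into mitochondria.

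Values are deposited FPKM, fragment numbers relative to the length of the gene and the total of the library. Library totals recovered from the steps in these values were 33834388 to 53625125 fragments, with the lowest in the HA IP and the highest in the input of animal 595. Fold changes are log2 differences of HA IP minus input from limma on log2(FPKM + 0.1), after scaling with TMM factors (trimmed mean of M-values), with p-values adjusted over 15605 genes tested and a threshold of 0.05. TMM scaling raised HA IP over input by 0.83 on the log2 scale, so that the median of all genes tested was 0.00 after it and -0.75 on the deposited scale. Aldh1l1, the gene that drives the Cre, averaged 406 ± 26.2 FPKM over the HA IP libraries against 21.8 ± 0.926 FPKM over the inputs (SD, n = 4 each). All 10 astrocyte markers listed were higher in HA IP and their summed FPKM rose from 818 to 877 in input to 11074 to 11667 in HA IP, while all 10 neuron markers were lower, from 2313 to 2534 in input to 88.6 to 114 in HA IP. Both libraries of an animal come from the same cortex, so the number of cells of a type does not differ between them. Between animals, fewer cells of a type and less RNA per cell cannot be told apart in bulk libraries such as these.

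Of the 9 genes 3 were higher and 6 lower in HA IP. Glul, Glud1 and the system N carrier Slc38a3 were the higher ones, with log2 fold changes of 3.90 to 4.65, and Gls2, Slc38a5, the system A carriers Slc38a1 and Slc38a2, and the aminotransferases Got1 and Got2 were lower, with -1.04 to -2.24. The background is broad: 41.8% of all genes tested passed as higher in the HA IP libraries and 41.5% as lower. Since 83.3% passed in one direction or the other, the fact that all 9 passed does not set them apart (Slc38a5, moreover, entered the test through its input values alone), and the sizes and directions are what the values below describe. Without TMM scaling the same 3 were higher and the same 6 lower, beside 23.3% and 61.6% of all genes, or 84.9% in either direction. For each of the 9 genes the HA IP and input values did not overlap, as for 22.0% of all genes with every HA IP value above the inputs and 59.0% with every HA IP value below them. Together the 9 genes took 2.43 ± 0.283% of all fragments in HA IP and 0.272 ± 0.0164% in input (SD, n = 4 each).

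**Figure D1:**
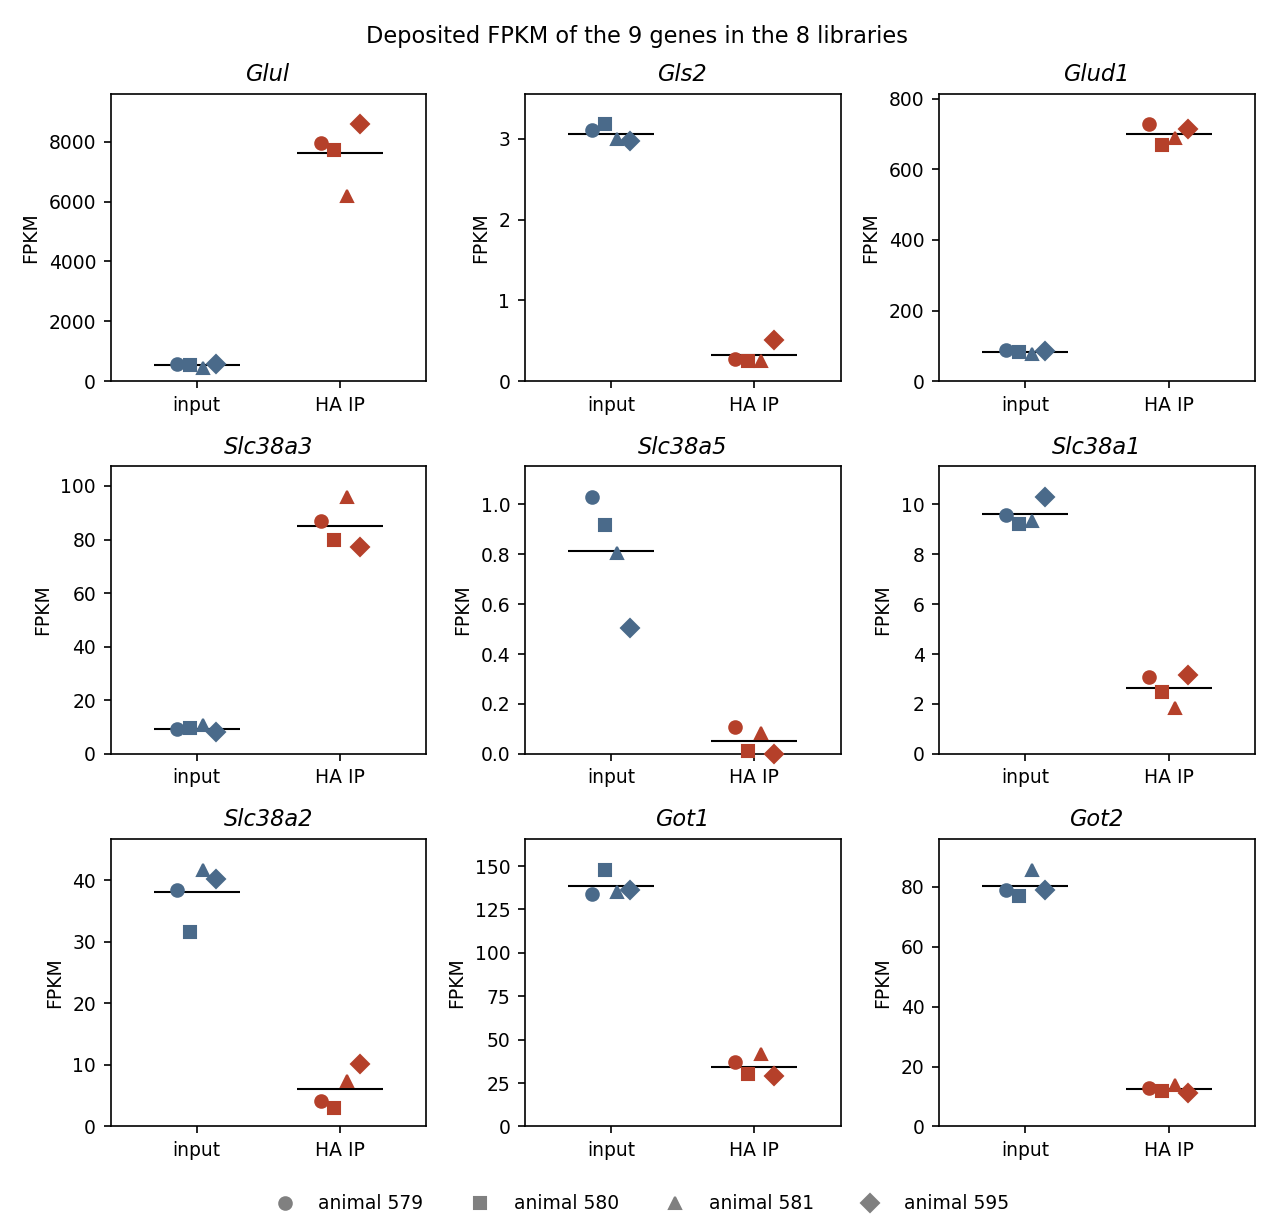
Deposited FPKM (linear axes from 0) of the 9 genes in the 4 input (blue) and 4 HA IP (red) libraries, with 1 symbol per animal and a line at the group mean. Glul, Glud1 and Slc38a3 are higher in every HA IP library than in any input, and the other 6 genes are lower.

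Glul encodes glutamine synthetase, the enzyme that makes glutamine from glutamate and that in brain is known mainly from astrocytes. It lies at chr1:153899929-153909723 (mm10). Its input values were 566, 541, 455 and 586 FPKM in animals 579, 580, 581 and 595, and its HA IP values were 7951, 7730.0, 6185 and 8576 FPKM in the same order. Animal 581 was lowest in both kinds of library and animal 595 highest in both. The log2 ratio within an animal therefore stayed between 4.55 and 4.70, although Glul differed 1.39-fold between HA IP libraries. Over all libraries the log2 fold change was 4.65 (SE 0.19; limma, adjusted p = 7.56e-09), and 3.82 (SE 0.17) on the deposited scale. Glul alone made up 1.73% to 2.40% of all fragments in an HA IP library against 0.127% to 0.164% in an input library, and ranked from position 3 to 5 by fragments in HA IP and from 23 to 43 in input.

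Glud1, the mitochondrial glutamate dehydrogenase gene at chr14:34310727-34345033, interconverts glutamate and 2-oxoglutarate through its product. It was the steadiest of the genes that rose, with 87.7, 81.4, 77.1 and 86.3 FPKM in the inputs of animals 579, 580, 581 and 595 and 727, 668, 689 and 714 FPKM in their HA IP libraries. The groups lay far apart and libraries within a group differed by at most 1.14-fold. Its log2 fold change was 3.90 (SE 0.08; limma, adjusted p = 2.35e-10), with 3.84 to 3.94 in the 4 animals, and 3.07 (SE 0.08) without TMM scaling. RefSeq lists a pseudogene, Glud-ps, and reads that fit both could be counted for either, so the level of Glud1 is uncertain to that extent.

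Gls2 encodes the liver-type glutaminase, which turns glutamine back into glutamate, and lies at chr10:128194635-128210004. Its level was low throughout: 3.11, 3.18, 3.0 and 2.97 FPKM in the inputs of animals 579, 580, 581 and 595, and 0.280, 0.248, 0.245 and 0.512 FPKM in HA IP. The HA IP values rest on 93, 80, 80 and 126 fragments. Animals 579, 580 and 581 lay close together in HA IP, and animal 595 was 2.09-fold above the lowest. The log2 fold change was -2.24 (SE 0.19; limma, adjusted p = 1.92e-06), with -1.61 in animal 595 and -2.34 to -2.50 in the others. With a pseudocount of 1 FPKM it was -1.22, and on the deposited scale -2.95. The summed FPKM of the 10 neuron markers in HA IP was 104, 88.6, 109 and 114 in animals 579, 580, 581 and 595, so animal 595 had the highest sum, by a smaller margin. The part of neuronal RNA in the values of Gls2 was not tested.

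Of the 4 SNAT glutamine carrier genes, Slc38a3 was higher in HA IP and the other system N gene, Slc38a5, was lower, as were both system A genes. Slc38a3, at chr9:107651154-107668968, encodes SNAT3 (also SN1), a system N carrier through which astrocytes can release glutamine. It stood at 9.37, 9.56, 10.7 and 8.04 FPKM in the inputs of animals 579, 580, 581 and 595 and at 86.8, 79.8, 95.9 and 77.2 FPKM in their HA IP libraries. As for Glul, the order of the animals was much the same in both kinds of library, with animal 581 highest and animal 595 lowest in each. The log2 fold change was 3.98 (SE 0.10; limma, adjusted p = 5.51e-10), between 3.91 and 4.05 in the 4 animals, and 3.16 (SE 0.10) without TMM scaling.

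Slc38a5 encodes SNAT5 (also SN2), the other classical system N carrier, known in brain from endothelial cells as well as glia, and lies at chrX:8271381-8280179. Only 233 fragments were counted for it in the 4 inputs and 17 in the 4 HA IP libraries. The inputs of animals 579, 580, 581 and 595 gave 1.03, 0.916, 0.805 and 0.504 FPKM (68, 60, 55 and 50 fragments), and the HA IP libraries gave 0.107, 0.0122, 0.0843 and 0 FPKM (9, 1, 7 and 0 fragments). A count of 0 in the HA IP library of animal 595 allows up to 0.0480 FPKM, the value of 3 fragments. Summed over libraries, Slc38a5 had 0.101 CPM in HA IP (fragments relative to the library total, without length; exact Poisson 95% interval 0.0587 to 0.161) and 1.44 CPM in input (1.26 to 1.64). The ratio of input to HA IP was 14.3 (exact binomial 95% interval 8.75 to 25), and these intervals cover counting error only.

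In the fit Slc38a5 had a log2 fold change of -2.15 (SE 0.31; limma, adjusted p = 0.000102), a value set largely by the pseudocount, since it was -3.67 with 0.01 FPKM and -0.59 with 1 FPKM. It passed the filter on low genes through the inputs alone, 4 of which reached the limit against 0 of the HA IP libraries, so it could hardly have been tested without differing. Most endothelial markers were also lower in HA IP, but every marker list except that of astrocytes held lower genes. Of the 10 endothelial markers listed, 9 were lower, none was higher and Kdr did not pass. Their summed FPKM was 34.6, 31.2, 32.1 and 24.6 in the inputs of animals 579, 580, 581 and 595. In HA IP it was 4.02, 3.43, 3.88 and 4.98 in the same order, highest in animal 595, where Slc38a5 had 0 fragments. None of the 10 was at 0 in all HA IP libraries. Their part in the values of Slc38a5 was not tested.

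Slc38a1 and Slc38a2 encode SNAT1 and SNAT2, system A carriers that bring glutamine into neurons, SNAT2 being also a widely expressed carrier whose gene is known to respond to amino acid supply. They lie in the same region of chromosome 15, at chr15:96571418-96643438 and chr15:96687392-96699728. Slc38a1 stood at 9.56, 9.23, 9.32 and 10.3 FPKM in the inputs of animals 579, 580, 581 and 595 and at 3.09, 2.47, 1.85 and 3.17 FPKM in HA IP. The inputs were close together and the HA IP library of animal 581 was the lowest. The log2 fold change, -1.04 (SE 0.16; limma, adjusted p = 0.000165), was the smallest in size of the 9, with -0.75 to -1.51 in the 4 animals and -1.85 (SE 0.16) on the deposited scale. It lay above the values of the 10 neuron markers, which ran from -4.43 to -2.37 in the same fit. So did the other lower genes of the 9 in this fit, down to -2.24 for Gls2. For the low genes Gls2 and Slc38a5 the value depends on the pseudocount. With 0.01 FPKM they were at -2.47 and -3.67, so their place relative to the neuron markers is uncertain.

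Slc38a2 had 38.4, 31.6, 41.7 and 40.2 FPKM in the inputs of animals 579, 580, 581 and 595 and 4.12, 3.0, 7.33 and 10.1 FPKM in HA IP. Among the 8 genes counted in every library it was the one that differed most between HA IP libraries, 3.38-fold between animals 580 and 595, while the inputs differed 1.32-fold. Its log2 fold change was -1.94 (SE 0.31; limma, adjusted p = 0.000209), and the ratios within animals ran from -2.50 in animal 580 to -1.19 in animal 595. Every HA IP value was nonetheless below every input, and the deposited scale gave -2.75 (SE 0.32).

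**Figure D2:**
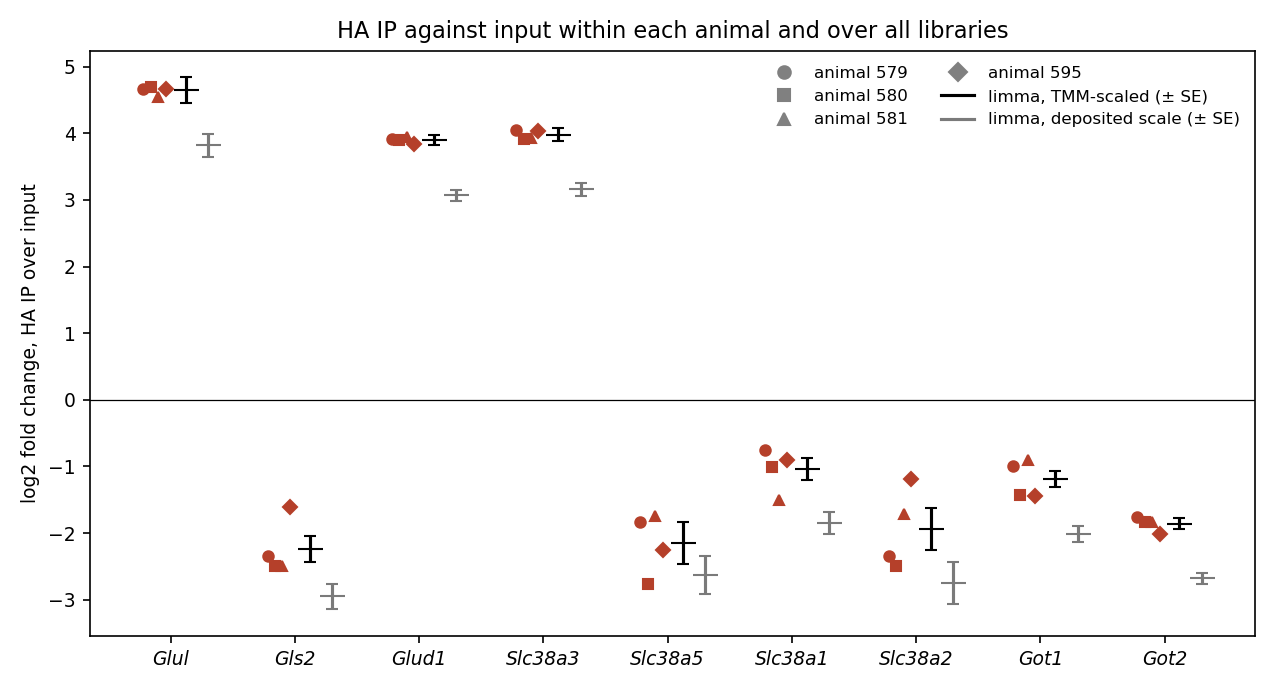
Log2 fold change of HA IP over input for the 9 genes: red symbols are the 4 within-animal differences after TMM scaling, black marks the limma estimate ± SE on that scale and grey marks that on the deposited scale. Glul, Glud1 and Slc38a3 lie near 4 with little spread between animals, and the 6 genes below 0 spread more, Slc38a2 most.

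Got1 and Got2 encode the cytosolic and mitochondrial aspartate aminotransferases, which move an amino group between glutamate and aspartate. Got1, at chr19:43499752-43524605, had 134, 148, 135 and 136 FPKM in the inputs of animals 579, 580, 581 and 595 and 37.2, 30.0, 41.8 and 28.8 FPKM in HA IP. Animal 580 stood above the other inputs, and animals 579 and 581 were the higher ones in HA IP. The log2 fold change was -1.19 (SE 0.12; limma, adjusted p = 5.02e-06) and -2.02 (SE 0.12) on the deposited scale. Got2, at chr8:95864133-95888401, had 78.9, 77.0, 85.7 and 78.8 FPKM in input and 12.7, 11.8, 13.8 and 11.3 FPKM in HA IP. Its log2 fold change, -1.86 (SE 0.08; limma, adjusted p = 9.68e-09), varied little, from -2.01 to -1.76 in the 4 animals, and was -2.68 (SE 0.08) without TMM scaling. RefSeq lists a pseudogene of Got2, Got2-ps1, so its level is uncertain in the same way as that of Glud1.

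Promoter sequences of RefSeq (GRCm38.p6, the mm10 build) were at hand for 6 of the 9 genes, and Slc38a3, Slc38a1 and Gls2 were not matched. The 250 bases before the start of Glul, the gene with the greatest rise, and of Got1, an aminotransferase gene that fell, are shown because they alone of the 6 hold the sequence CCAAT on either strand. Glul is on the plus strand, at chr1:153899679-153899928, and Got1 on the minus strand, at chr19:43524606-43524855. Both are written 5′ to 3′ along the gene, with each CCAAT, or its reverse complement ATTGG, in capitals.
Glul: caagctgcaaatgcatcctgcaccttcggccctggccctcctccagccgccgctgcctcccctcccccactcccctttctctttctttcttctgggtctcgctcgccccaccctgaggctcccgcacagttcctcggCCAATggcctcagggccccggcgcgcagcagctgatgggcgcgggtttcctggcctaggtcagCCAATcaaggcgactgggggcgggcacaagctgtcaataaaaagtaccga
Got1: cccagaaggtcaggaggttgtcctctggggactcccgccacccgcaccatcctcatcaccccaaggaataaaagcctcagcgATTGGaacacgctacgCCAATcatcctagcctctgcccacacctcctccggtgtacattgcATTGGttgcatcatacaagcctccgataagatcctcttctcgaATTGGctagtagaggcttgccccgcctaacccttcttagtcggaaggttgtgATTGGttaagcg
Glul held 2 matches, which began 113 and 50 bases before the start, and Got1 held 5, at 168, 152, 107, 64 and 12 bases. Of 32851 RefSeq promoter windows of this length 33.8% held at least 1 match, 10.1% at least 2 and 0.213% at least 5. The motif was picked after the sequences had been seen, and a match describes letters, not a site in use.

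The ratio of a pair of genes within a library does not depend on the scaling between libraries, so 5 such ratios were compared between the 4 HA IP and 4 input libraries. Each is log2 of FPKM + 0.1 of the former gene over the latter. Glul over Gls2, the RNA of glutamine synthetase against that of the liver-type glutaminase, had 14.17 ± 0.30 in HA IP and 7.40 ± 0.16 in input (SD, n = 4 each), a difference of 6.77. Slc38a3 over Slc38a1, a system N against a system A carrier, had 4.98 ± 0.46 and -0.03 ± 0.24, a difference of 5.01. For Slc38a3 over Slc38a5, both system N carriers, the difference was 5.79, from 3.41 ± 0.31 in input to 9.20 ± 0.41 in HA IP. Lengths used in the FPKM enter each ratio alike in both groups and cancel in these differences, but the pseudocount does not. With 1 FPKM the difference was 5.45 for Glul over Gls2 and 3.83 for Slc38a3 over Slc38a5. The ratio to Slc38a5 is given as a description with no test, because Slc38a5 passed the filter through the inputs alone and had 0 to 9 fragments in an HA IP library.

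Got1 over Got2 differed less, by 0.67, with 1.34 to 1.59 in HA IP and 0.66 to 0.94 in input. Thus the cytosolic form was lowered less than the mitochondrial form in every animal. Glul over Gls2, Slc38a3 over Slc38a1 and Got1 over Got2 each separated the groups completely, with p = 0.0286 in a two-sided exact permutation test, the smallest p that 4 against 4 libraries allow, and 0.0357 after adjustment over the 5 ratios. These tests take the libraries as unpaired. The adjustment includes the ratio to Slc38a5, and without that ratio the adjusted p of these pairs would be higher. The ratio of the system A carriers, Slc38a1 over Slc38a2, overlapped between the groups. It was -0.40, -0.27, -1.93 and -1.65 in the HA IP libraries of animals 579, 580, 581 and 595 and -2.15 to -1.76 in input, so animals 579 and 580 stood well above the inputs, animal 595 just above them and animal 581 among them. Within animals it was higher in HA IP in 4 of 4, by 1.59, 1.49, 0.22 and 0.30 in animals 579, 580, 581 and 595, and so were the other ratios. The paired exact sign-flip permutation test gave p = 0.125 for each of the 4 ratios without Slc38a5, the smallest that 4 pairs allow. Unpaired, the difference of 0.90 had p = 0.0571 (two-sided exact permutation test; 0.0571 adjusted over the 5). Without the HA IP library of animal 581, which lay among the inputs, it was 1.19 (adjusted exact permutation p = 0.0286). Leaving out that library separates the groups completely, so this p was fixed by the choice and is no support. With a pseudocount of 1 FPKM the difference was 1.0 and passed (adjusted exact permutation p = 0.0286). With 0.01 FPKM it was 0.89 and did not pass (adjusted exact permutation p = 0.0857).

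**Figure D3:**
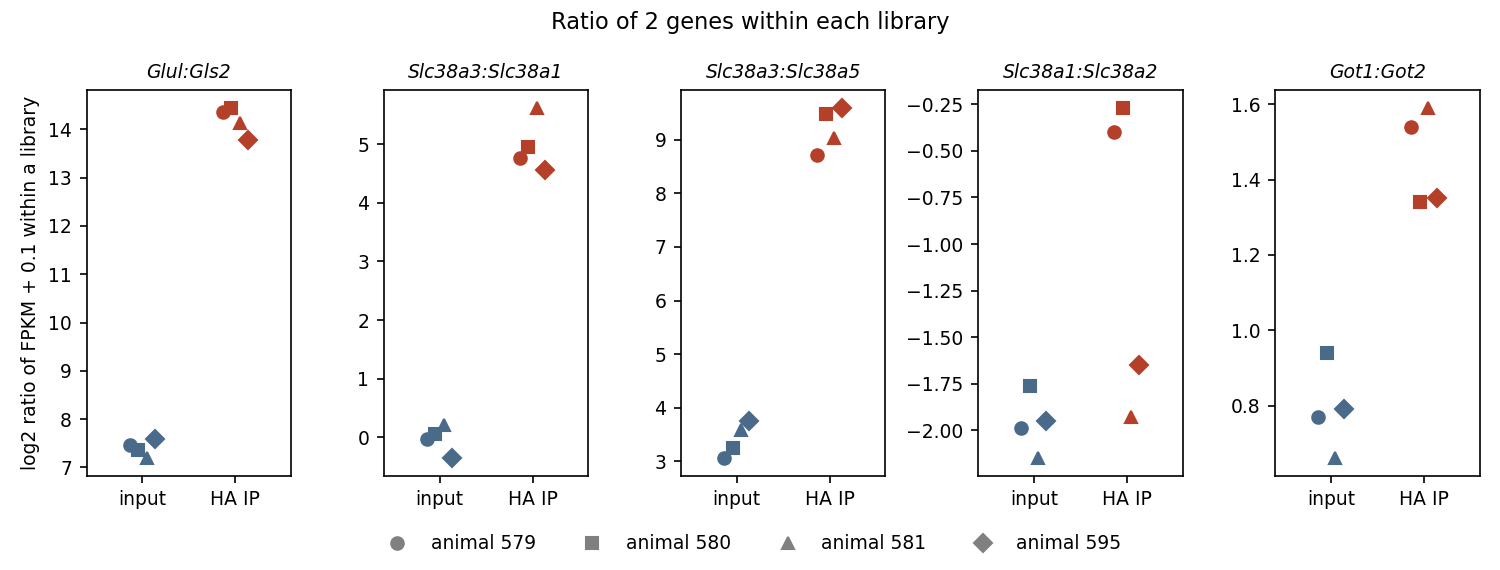
Log2 ratio of 2 genes within each library (FPKM + 0.1, separate axes per pair) for 4 input (blue) and 4 HA IP (red) libraries, with 1 symbol per animal. In 4 pairs all HA IP ratios lie above all input ratios, and for Slc38a1 over Slc38a2 the HA IP library of animal 581 lies among the inputs and that of animal 595 just above them.

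Levels of different genes can be set side by side only where the length in the FPKM is that of a transcript. The length recovered for Slc38a1, 22029 bases, and those for Slc38a3 (7466) and Gls2 (7276) belong to genes with 3 curated RefSeq transcripts each and may combine several, and Slc38a2 has 2. These 4 genes are therefore not ranked. For the other 5 the recovered length was taken as that of the transcript, which was not checked against transcript lengths. Among the 5 genes with 1 curated transcript, the HA IP order by FPKM was Glul, Glud1, Got1, Got2 and Slc38a5, with no overlap between neighbours. In input the order was Glul, Got1, Glud1, Got2 and Slc38a5, and Glud1 at 77.1 to 87.7 FPKM overlapped Got2 at 77.0 to 85.7 FPKM. Glud1 and Got2, which overlapped in input, were thus at 668 to 727 and 11.3 to 13.8 FPKM in HA IP.

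Genes with the most similar within-animal log2 ratios were sought among 12582 tested genes with at least 100 fragments on average, by root mean square difference over the 4 animals. For Glul these were Acsf2, the transcription factor gene Sox9 and the clusterin gene Clu, at 0.06, 0.06 and 0.07. For Slc38a3 they were the GABA transporter gene Slc6a11, at 0.02, the small heat shock protein gene Hspb8, at 0.07, and the carotenoid oxygenase gene Bco2, at 0.08. Slc6a11 had ratios of 4.06, 3.93, 3.91 and 3.99 in animals 579, 580, 581 and 595, against 4.05, 3.91, 3.93 and 4.03 for Slc38a3. For Slc38a1 they were Cyb5d1, Lsr and Etv3, at 0.05, 0.06 and 0.07. That each had its lowest ratio in animal 581, as Slc38a1 did, follows from the selection. The ratios are only 4 per gene and describe these libraries.

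Other enzymes that use or make glutamine or glutamate were more often higher than lower in HA IP. Of 25 listed and tested, 17 were higher, 6 lower and 2 did not pass, with a median log2 fold change of 1.44 beside 0.00 for all genes tested, and 14 and 9 on the deposited scale with a median of 0.63 beside -0.75. The shares over all genes tested were 41.8% higher and 41.5% lower after TMM scaling and 23.3% and 61.6% on the deposited scale, against which the other lists below are also to be read. Gpt, which encodes the cytosolic alanine aminotransferase, rose by 4.48 (SE 0.10), Prodh, the proline dehydrogenase gene, by 4.38 (SE 0.23), Oat, the ornithine aminotransferase gene, by 3.74 (SE 0.10) and Aldh4a1, which completes the path from proline to glutamate, by 3.53 (SE 0.16). Psat1, an aminotransferase gene of serine synthesis that uses glutamate, rose by 3.70 (SE 0.09). The branched-chain aminotransferase genes went apart, mitochondrial Bcat2 at 2.20 (SE 0.16) and cytosolic Bcat1 at -3.19 (SE 0.13).

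Besides Bcat1, the lower enzymes were Gad1 and Gad2, which make GABA from glutamate, at -4.09 (SE 0.13) and -4.43 (SE 0.21), Asns, the glutamine-using asparagine synthetase gene, at -3.33 (SE 0.13), and the CTP synthase genes Ctps and Ctps2 at -0.83 (SE 0.22) and -0.76 (SE 0.12). Asns averaged 38.5 ± 2.54 FPKM over the inputs and 2.12 ± 0.417 FPKM over the HA IP libraries (SD, n = 4 each). Ppat and Gmps, of purine synthesis, did not pass, but on the deposited scale both passed as lower, at -0.92 and -0.61.

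Of 15 other glutamine carriers 12 were tested. Slc38a8, Slc6a14 and Slc6a19 had too few fragments. After TMM scaling 4 were higher, 7 lower and 1 did not pass. The median was -0.55 beside 0.00 for all genes. Without it 1 was higher and 8 were lower, with a median of -1.35 beside -0.75, and the share that was lower is near the 61.6% of all genes. Slc3a2, the heavy chain that partners several amino acid exchangers, was the one higher on both scales, averaging 74.0 ± 5.72 FPKM over the HA IP libraries and 16.6 ± 1.90 FPKM over the inputs, which was 2.98 (SE 0.10) on the log2 scale. Its light chain gene Slc7a5 had 1.19 (SE 0.23), and 0.37 without TMM scaling, where it did not pass. Slc7a8, another light chain gene, changed by -3.06 (SE 0.15). Among the SNAT genes beyond the 4 described above, Slc38a4, Slc38a6, Slc38a7, Slc38a9 and Slc38a11 were lower, from -1.79 for Slc38a6 to -0.36 for Slc38a9 beside Slc38a11. Slc38a11 had 2 fragments in the 4 HA IP libraries together and 152 in the inputs, and passed the filter through the inputs alone. Its fitted -2.30 is set by the pseudocount (-4.67 with 0.01 FPKM and -0.51 with 1 FPKM). Slc38a4 had 58 and 342 fragments, and 2 of its HA IP libraries reached the filter limit. The call of Slc38a9 was lost without animal 579 (-0.37) or 581 (-0.30). Slc38a10 had 0.15 and did not pass, and on the deposited scale passed as lower at -0.65, so Slc38a3 was the only one of the 10 tested SNAT genes called higher on either scale.

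The malate-aspartate shuttle and the mitochondrial glutamate carriers gave 4 higher, 2 lower and 1 that did not pass of 7, with a median of 1.02 beside 0.00 for all genes, and 3 and 3 on the deposited scale with a median of 0.20 beside -0.75. With 7 genes, beside 41.8% higher and 41.5% lower over all genes, the counts say little about the list, and its genes are given one by one. The glutamate carriers of the inner membrane moved in opposite directions. Slc25a18 averaged 41.6 ± 1.11 FPKM over the inputs and 667 ± 33.3 FPKM over the HA IP libraries, or 4.82 (SE 0.07) on the log2 scale. Slc25a22 fell from 38.9 ± 3.92 to 5.46 ± 0.806 FPKM, or -2.0 (SE 0.11). The malate dehydrogenase genes Mdh1 and Mdh2 had 1.02 (SE 0.12) and 2.01 (SE 0.10), the oxoglutarate carrier gene Slc25a11 1.24 (SE 0.10) and the aspartate-glutamate carrier gene Slc25a12 -0.73 (SE 0.08). Got1 and Got2, the shuttle's aminotransferases, were thus lower while its malate dehydrogenases were higher, and Mdh1 did not pass on the deposited scale, at 0.20.

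At the glutamate end of the cycle 2 of 6 genes were higher and 4 lower on both scales, beside 41.8% and 41.5% of all genes after TMM scaling. The glial uptake carrier genes Slc1a2 and Slc1a3 rose by 3.49 (SE 0.10) and 3.69 (SE 0.09), values close to those of Slc38a3 and Glud1. The neuronal carrier gene Slc1a1 changed by -3.34 (SE 0.12) and the vesicular glutamate transporter genes Slc17a6, Slc17a7 and Slc17a8 by -4.06 (SE 0.14), -3.69 (SE 0.13) and -2.12 (SE 0.16). Of these Slc17a8 had 35 fragments in the 4 HA IP libraries, 1 of which reached the filter limit, and 590 in the inputs.

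**Figure D4:**
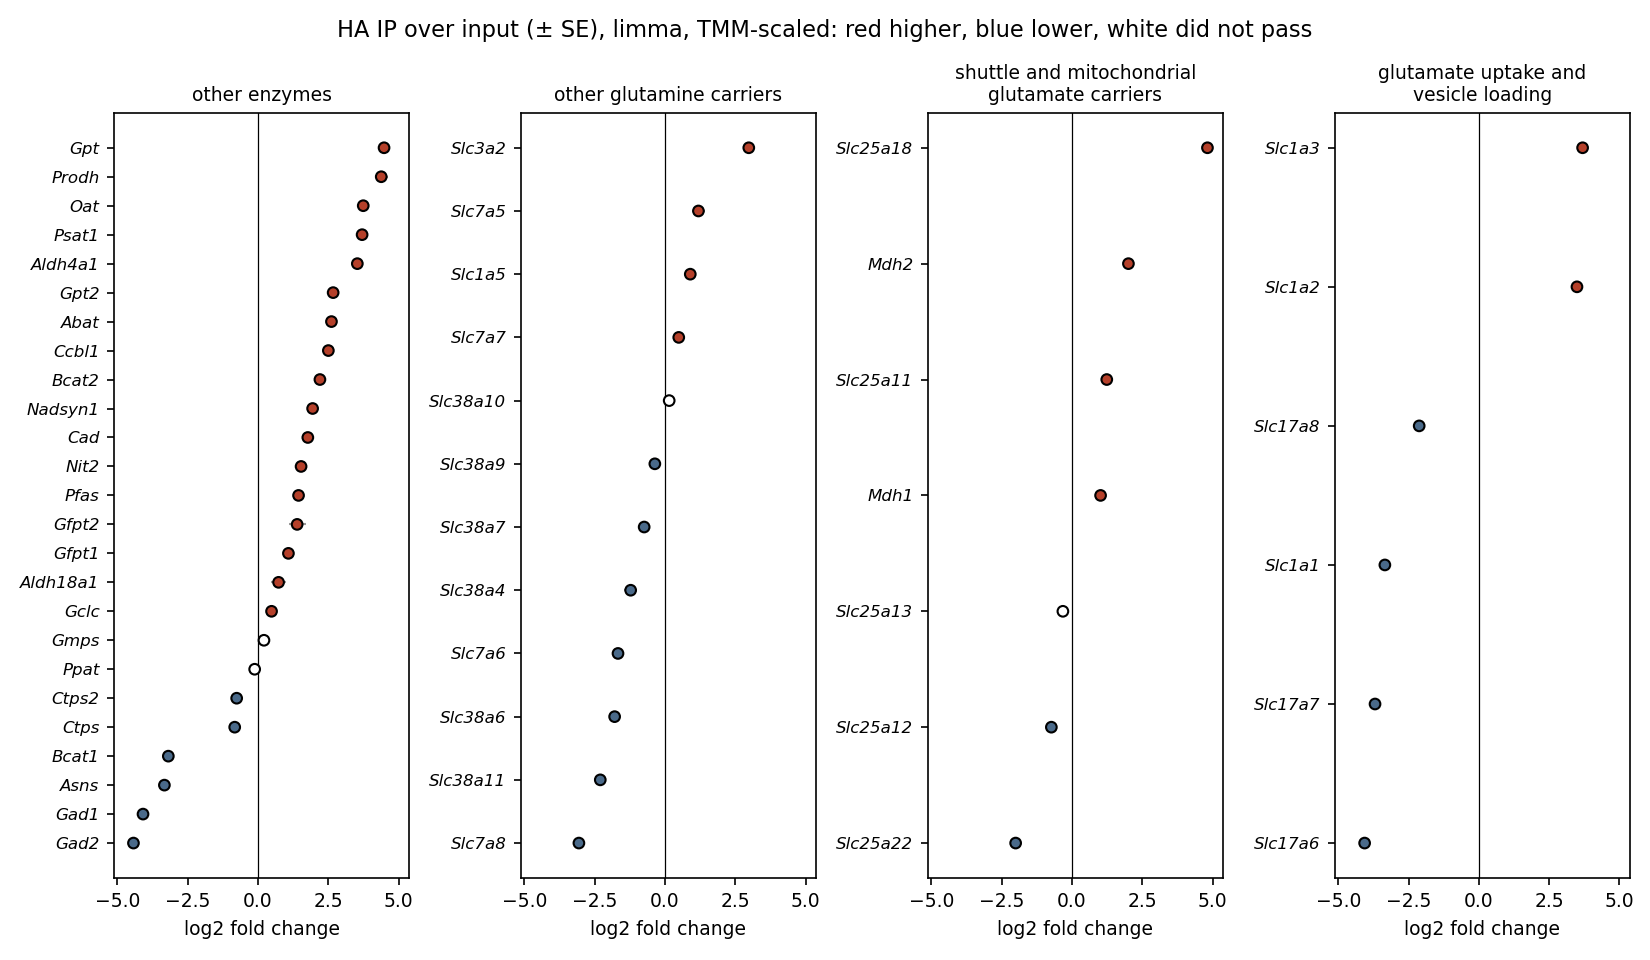
Log2 fold change of HA IP over input (± SE, limma after TMM scaling) for the tested genes of 4 lists of related enzymes and carriers, where red points are higher, blue lower and white did not pass. Of the enzymes 17 are higher and 6 lower, and of the glutamine carriers 4 are higher and 7 lower.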

How the data were processed

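Per the submitters' processing notes, reads were handled with bcl2fastq 2.17, STAR and HTSeq on the mm10 build. For STAR and HTSeq the version, and for counting the annotation and strand setting, were not given in the sources used here. Per the labels' protocols, paired-end stranded libraries were made from mRNA. The authors deposited FPKM values, a unit inferred here from the numbers because neither headers nor labels name it. Solving for a length of each gene and a total of each library turned all 142235 nonzero values into whole fragments (tolerance 0.001, to which the lengths were tuned). On simulated data the recovery was exact for 97.8% of 15735 genes.

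Genes were tested if at least 4 libraries reached 0.246 CPM (equal to 10 fragments at median depth) and all libraries together 15 fragments. TMM factors (0.3 of M-values and 0.05 of A-values trimmed, unweighted) were computed in Python 3.11.15 and limma 3.58.1 was run in R 4.3.3 with an intensity trend and no covariates, two-sided, with Benjamini-Hochberg adjustment. For HA IP against input, simulated on 15605 genes of which 200 were changed, 92 of 95 changes of 2-fold and 105 of 105 of 4-fold were called, and 14 of the unchanged genes. The simulation had no differences between animals, and in the data 83.3% of genes passed. It therefore does not test the scaling or the calls where most genes differ. A pseudocount of 0.1 FPKM understates changes of low genes. Scaling factors and the genes tested were kept when libraries were left out.

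The genes and the lists were chosen with earlier results of these data known. Named genes were the 9 genes, Aldh1l1, Rpl22, the members of 4 pathway lists and, for Glul, Slc38a3 and Slc38a1, the 3 genes most alike. A gene of the enzyme list is not reported here and was taken out of its counts. Rpl22, the tagged gene, had a log2 fold change of 0.68 (SE 0.13), and -0.14 on the deposited scale. Other marker lists gave, as higher and lower in HA IP, 0 and 8 of 8 for microglia, 1 and 9 of 10 for oligodendrocytes, 2 and 3 of 5 for oligodendrocyte precursors, 1 and 3 of 6 for mural cells and 1 and 3 of 5 for fibroblasts. Libraries with the same number come from the same animal per the titles: deviations from group means correlated at 0.22 to 0.40 within animals and at most 0.11 between them. The limma p-values of the main fit rest on the spread between libraries within a group, taken as unpaired and moderated over all genes tested. They cover these 4 animals only.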

Additional observations from a re-analysis of the deposited data

Results flagged for a closer look

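Within groups of 4 libraries, 11 of the 128 groups looked at had 1 library far from the other 3, by Dixon's test at 95%, where chance gives about 1 in 20. The HA IP library of animal 595 stood apart in 2: Gls2 at 0.512 FPKM against 0.245 to 0.280, and Slc1a1 at 2.49 FPKM against 1.64 to 1.73. The HA IP library of animal 581 stood apart in 4: the proline synthesis gene Aldh18a1 at 6.32 FPKM against 2.30 to 2.90, the hexosamine synthesis gene Gfpt2 at 8.80 FPKM against 3.0 to 3.93, Ctps at 8.58 FPKM against 3.85 to 4.38, and the amino acid exchanger gene Slc7a5 at 35.9 FPKM against 17.0 to 18.8.

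The input of animal 581 was also highest for Slc7a5, at 21.5 FPKM against 14.5 to 15.4, and for Slc7a8, at 27.4 FPKM against 20.3 to 20.5, and lowest for Gpt2, at 15.1 FPKM against 19.6 to 20.5. The input of animal 580 was highest for Got1, at 148 FPKM against 134 to 136. The input of animal 579 was lowest for Slc38a6, at 3.02 FPKM against 3.99 to 4.11.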

How the results depend on the processing

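All 9 genes kept their direction and passed under every alternative run, except that Slc38a5 was not tested with a filter of 1 CPM. The alternatives were other pseudocounts, no TMM scaling, median-of-ratios factors, other filters, the block by animal and each animal or library left out. For Slc38a5 this is little support: it passed the main filter through the inputs alone, and its log2 fold change ran from -3.67 to -0.59. The highest adjusted p of the 9 genes was 0.00298 (limma), for Slc38a2 without animal 579. The replicate block, fitted by animal, changed no call of the genes or lists; for the within-library ratios it gave 6.77 for Glul over Gls2, 5.01 and 5.79 for Slc38a3 over Slc38a1 and Slc38a5, and 0.67 for Got1 over Got2, none of which can pass, since an exact sign-flip test of 4 pairs cannot go below 0.125. With libraries left out these ratios ran from 6.68 to 6.97, 4.80 to 5.15, 5.65 to 5.95 and 0.58 to 0.76, and Slc38a1 over Slc38a2 from 0.64 to 1.19; without a whole animal the test cannot go below 0.10. With a pseudocount of 1 FPKM Slc38a1 over Slc38a2 was 1.0 and passed, and with 0.01 FPKM it was 0.89 and did not pass. On the deposited scale the glutamine carriers higher in HA IP fell from 4 to 1, as TMM scaling shifts all ratios. On it 5 list genes changed sign: Aldh18a1 to -0.07, Gmps to -0.61, Gclc to -0.34, Slc38a10 to -0.65 and Slc7a7 to -0.15. Calls changed as well. Gclc went from higher to lower, and Gmps, Slc38a10, Ppat (-0.92) and Slc25a13 (-0.84) passed as lower. Mdh1, Aldh18a1, Gfpt2, Slc1a5, Slc7a5 and Slc7a7 no longer passed. After TMM scaling Ppat (-0.12, not passed) ran from -0.23 to 0.01 with libraries left out, the latter without animal 595, and did not pass. Calls of 3 list genes were lost with a library or animal left out: Aldh18a1 (0.73; 0.79 without animal 579 or 595, 0.72 and 0.69 without the input of animal 580 or 595), Slc38a9 (-0.36; -0.37 and -0.30 without animal 579 or 581) and Slc7a7 (0.49; 0.46 and 0.36 without animal 579 or 595). Gmps passed at 0.33 without animal 595, and Slc25a13 at -0.48 without its HA IP library; the cause was not tested. Depth limits the values of Slc38a5, with 17 fragments in HA IP, and Slc38a11, with 2.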
